A study of Homo sapiens with 15 samples.

Results

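Resistant T47D cells that received erdafitinib together with 4-hydroxytamoxifen (4-OHT) were compared with the same cells on erdafitinib alone, using 3 libraries of each treatment, 6 of the 15 libraries of the series. All 6 were included by their treatment labels, with no selection on measured values. T47D is an established luminal breast cancer cell line that carries the oestrogen receptor. 4-OHT is the active metabolite of tamoxifen, and erdafitinib inhibits the kinases of the receptors for fibroblast growth factors (FGFs). The combination group (TR combination) received 5 µM erdafitinib and 1 µM 4-OHT for 120 h, and the erdafitinib group (TR erdafitinib) 5 µM erdafitinib for 120 h. A second pair of groups from the same resistant line was used to see what 4-OHT did without the inhibitor: 1 µM 4-OHT (TR 4-OHT) and 0.05% DMSO (TR vehicle), each for 120 h and in 3 libraries. The remaining group was parental T47D on vehicle (PAR vehicle), which entered the filter, the scaling and the estimate of spread but none of the differences tested. Its levels are given for a few genes.

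All resistant groups came from a line labelled resistant to 4-OHT and kept in medium with 2% charcoal-stripped serum and 1 µM 4-OHT. Before treatment they were left for 24 h to attach and for 48 h in phenol red-free medium with charcoal-stripped serum and insulin, and 4-OHT was not listed in that medium. The erdafitinib group was therefore also a group withdrawn from 4-OHT, and the combination group was one to which 4-OHT was returned. The labels do not say whether the resistant line is 1 clone. The 3 libraries of each group are called biological replicates there, without further detail, so the p-values measure the spread between these libraries, which may be technical.

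Tamoxifen acts by occupying the oestrogen receptor, a hormone-activated transcription factor that drives genes such as PGR and GREB1 in luminal breast cells. FGF receptors signal through the ERK kinases, whose activity is read from feedback genes such as DUSP6 and SPRY4. The interferon response is a defence programme present in most cell types: interferons bind receptors linked to JAK kinases, a complex of STAT and IRF transcription factors binds the interferon-stimulated response element (ISRE) in promoters, and the induced genes encode antiviral effectors, RNA sensors, the ISG15 conjugation system and the antigen presentation machinery. Because the libraries were bulk RNA, more RNA per cell and more cells with that RNA cannot be told apart.

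Library totals ran between 18763258 and 28717380 counts, so that 3 counts corresponded to 0.104 to 0.160 CPM (counts scaled to library size). Of 60664 genes, 16210 passed the filter on low counts and were tested. All 10 markers of luminal epithelium were tested: GATA3, a luminal transcription factor, stood at 564.2, 563.5 and 604.3 CPM in the combination group and at 590.4, 484.0 and 476.0 CPM in the erdafitinib group. Of markers of other cell types, 2 of 8 for fibroblasts (COL1A1 and COL3A1) were tested, and 0 of 5 for endothelium. The summed level of the tested fibroblast markers was 14.6, 20.8 and 30.6 CPM in the combination group and 30.8, 16.1 and 16.8 CPM in the erdafitinib group, with COL1A1 holding nearly all of it. The libraries also differed within groups along an axis tied to GC content: the fifth of genes richest in GC deviated from the 6-library mean by -0.50, -0.12 and 0.60 log2 units in combination libraries 1 to 3 and by 0.58, -0.16 and -0.39 in erdafitinib libraries 1 to 3. Mitochondrial genes held 22.9, 22.3 and 17.9% of counts in the combination libraries and 15.8, 17.9 and 19.3% in the erdafitinib libraries.

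No gene passed an adjusted p of 0.05 between the combination and erdafitinib alone, and the genes nearest to that threshold were nearly all interferon-induced and higher with both drugs. The count was 0 of 16210 genes tested (0%) in edgeR's quasi-likelihood test with Benjamini-Hochberg adjustment, where the smallest adjusted p was 0.121, while the DESeq2 Wald test called 16 genes, all 16 higher and 14 of them in the interferon response list. At an unadjusted p under 0.05 there were 104 genes (0.642% of those tested), of which 75 (0.463%) were higher and 29 (0.179%) lower with both drugs. Of the 10 genes with the smallest p, 9 belonged to the interferon response list of 50 genes, and of the top 25, 17 did. The 10th was LAMP3, a lysosomal membrane protein gene that is itself induced by interferon and was not on the list. The list had been drawn up with earlier results of these libraries known, so its ranks and counts are descriptions.

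**Figure D1:**
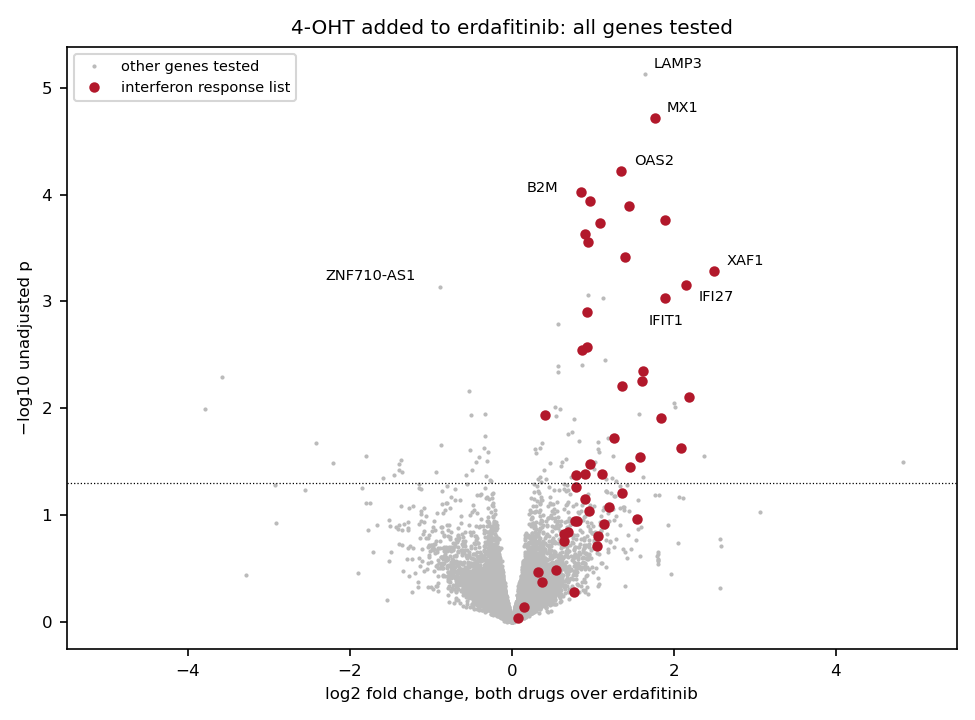
The 16210 genes tested are placed by their log2 fold change of TR combination over TR erdafitinib (horizontal) and by −log10 of the unadjusted p from edgeR (vertical); the dotted line is at 0.05 and red points are the 50 genes of the interferon response list. The red points all lie to the right of 0, and LAMP3 and MX1 lie highest.

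Promoters of interferon-induced genes often carry this element. The promoters of 5 listed genes with small p-values are shown because they hold matches to it and differ in where these lie. Sequences are from RefSeq (GRCh38.p14), run 5′ to 3′ on the gene's strand from 250 bases before to 50 bases after the annotated start, and were found for 40 of the 50 listed genes. Capitals mark matches to the ISRE core, GAAA, any 2 bases and GAAA, or to its reverse complement, TTTC, any 2 bases and TTTC, with overlapping matches joined.
MX1, chr21:41420308-41420607, plus strand: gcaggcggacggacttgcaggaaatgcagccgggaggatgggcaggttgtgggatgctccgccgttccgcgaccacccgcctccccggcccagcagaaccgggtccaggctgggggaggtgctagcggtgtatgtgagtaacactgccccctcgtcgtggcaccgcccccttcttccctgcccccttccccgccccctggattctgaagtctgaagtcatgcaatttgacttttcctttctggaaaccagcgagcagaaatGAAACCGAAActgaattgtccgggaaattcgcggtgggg
B2M, chr15:44711267-44711566, plus strand: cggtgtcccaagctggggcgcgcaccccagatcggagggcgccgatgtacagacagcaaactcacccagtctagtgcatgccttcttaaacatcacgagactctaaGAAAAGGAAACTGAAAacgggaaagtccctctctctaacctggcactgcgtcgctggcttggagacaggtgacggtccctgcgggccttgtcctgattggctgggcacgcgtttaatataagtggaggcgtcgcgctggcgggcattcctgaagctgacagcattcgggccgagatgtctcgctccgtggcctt
DDX60, chr4:168318703-168319002, minus strand: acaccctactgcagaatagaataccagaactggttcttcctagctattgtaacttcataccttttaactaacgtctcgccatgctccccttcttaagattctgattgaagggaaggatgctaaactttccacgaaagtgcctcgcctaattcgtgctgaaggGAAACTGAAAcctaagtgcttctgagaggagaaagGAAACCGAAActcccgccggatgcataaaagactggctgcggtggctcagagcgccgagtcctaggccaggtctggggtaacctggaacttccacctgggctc
OAS3, chr12:112938224-112938523, plus strand: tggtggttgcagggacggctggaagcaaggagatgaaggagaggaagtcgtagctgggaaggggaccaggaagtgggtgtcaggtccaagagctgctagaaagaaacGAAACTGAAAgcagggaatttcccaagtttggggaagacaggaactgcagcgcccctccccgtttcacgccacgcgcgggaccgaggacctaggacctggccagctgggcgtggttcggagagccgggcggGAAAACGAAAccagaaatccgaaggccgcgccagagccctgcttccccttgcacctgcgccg
IFIT1, chr10:89392373-89392672, plus strand: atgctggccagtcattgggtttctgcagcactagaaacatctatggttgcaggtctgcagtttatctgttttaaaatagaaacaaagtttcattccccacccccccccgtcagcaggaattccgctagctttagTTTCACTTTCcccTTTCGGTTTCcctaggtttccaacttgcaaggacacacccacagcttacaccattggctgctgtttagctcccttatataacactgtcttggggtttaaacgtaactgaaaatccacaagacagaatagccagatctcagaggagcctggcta

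MX1 has 3 annotated starts in the table, and the window shown held 1 match, which began 11 bases after its start. Of the other two MX1 windows, the one from chr21:41425989 held 0 matches and the one from chr21:41431800 held 1, on the opposite strand at -196. B2M held 2 overlapping matches, at -144 and -138 from the start, and DDX60 held 2 separate ones, at -88 and -53. The 2 matches of IFIT1, at -116 and -103, both lay on the opposite strand. Counting a gene where any of its windows matched, 27 of 40 listed genes with a promoter (67.5%) held the ISRE core on either strand, against 438 of 11389 genes tested with a promoter (3.85%) and 1195 of 27305 genes with a promoter in the table (4.38%). The gamma-activated site (TTC, any 3 bases and GAA), bound by STAT factors and read alike on both strands, was found in 13 of 40 listed genes (32.5%) and in 8.52% of tested genes. A match describes letters in a window and says nothing of binding in these cells. The list was made of known interferon-induced genes, so its higher share follows from that choice and is no result of these libraries. Among listed genes with a promoter, the ISRE core was found in 18 of 25 whose 3 combination libraries all lay above the 3 erdafitinib libraries and in 9 of 15 whose groups overlapped.

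Every one of the 50 listed interferon genes had a higher fitted level with both drugs than with erdafitinib alone. The median log2 fold change was 1.01, with a range of 0.08 to 2.49, while the median over all 16210 genes tested was 0.00 and 49.8% of them were positive. Of the 50, 30 had an unadjusted p under 0.05 and a higher level (background 0.463%), and 32 had groups that did not overlap, with the combination higher (background 2.97%). None passed the adjusted threshold in edgeR, and none had the combination lower without overlap (background 2.39%). The summed level of the list was 4057, 3299 and 4782 CPM in the combination group, against 2405, 1717 and 1757 CPM in the erdafitinib group. The lowest combination library thus lay above the highest erdafitinib library. Without combination library 3, the highest of the 6, the median was 0.88 and 45 of the 50 were positive, and without erdafitinib library 1, the highest of its group, it was 1.22.

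LAMP3 had the smallest p of all genes. It stood at 105.3, 74.4 and 121.2 CPM in the combination group, against 35.9, 26.9 and 33.1 CPM in the erdafitinib group. The lowest combination library lay above the highest erdafitinib library. The fold was 3.14 (95% interval 2.2 to 4.49; adjusted p = 0.121 in edgeR's quasi-likelihood test). In parental cells on vehicle LAMP3 stood at 91.1, 86.9 and 64.3 CPM, above all erdafitinib libraries. MX1, by contrast, stood at 7.05, 4.92 and 7.28 CPM in parental cells, so the 2 genes differed in their parental level.

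Antiviral effectors made up 20 of the 50 listed genes and had a median log2 fold change of 1.12. Of these, 15 were higher without overlap (background 2.97%) and 13 were higher at an unadjusted p under 0.05 (background 0.463%). MX1, a dynamin-like GTPase that blocks several viruses, stood at 515.3, 344.6 and 457.4 CPM in the combination group, against 175.3, 104.3 and 108.5 CPM in the erdafitinib group. All combination libraries lay above all erdafitinib libraries, by 3.39-fold in the fit (95% interval 2.24 to 5.15; adjusted p = 0.155). The OAS enzymes make the oligoadenylate messenger that activates an antiviral ribonuclease. OAS2 stood at 257.8, 179.2 and 264 CPM in the combination group, against 112.1, 83.9 and 78.8 CPM in the erdafitinib group, again without overlap (log2 fold change 1.35, SE 0.24; adjusted p = 0.328). OAS1 and OAS3 had no overlap either, and OAS1 stood at 57.7, 43.5 and 66.1 CPM in the combination group, against 26.5, 18.9 and 17.7 CPM in the erdafitinib group. IFIT1, which binds the caps of viral RNA, stood at 406.2, 237.9 and 268 CPM in the combination group, against 84.1, 93.1 and 68.2 CPM in the erdafitinib group. Its groups lay well apart, with a log2 fold change of 1.89 (SE 0.45). IFITM1, one of a family of membrane proteins that block viral entry, stood at 19.8, 22.5 and 74 CPM in the combination group and at 32.8, 10.1 and 9.88 CPM in the erdafitinib group. Here erdafitinib library 1 lay above 2 of the combination libraries, and the log2 fold change of 1.14 had an SE of 0.69.

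**Figure D2:**
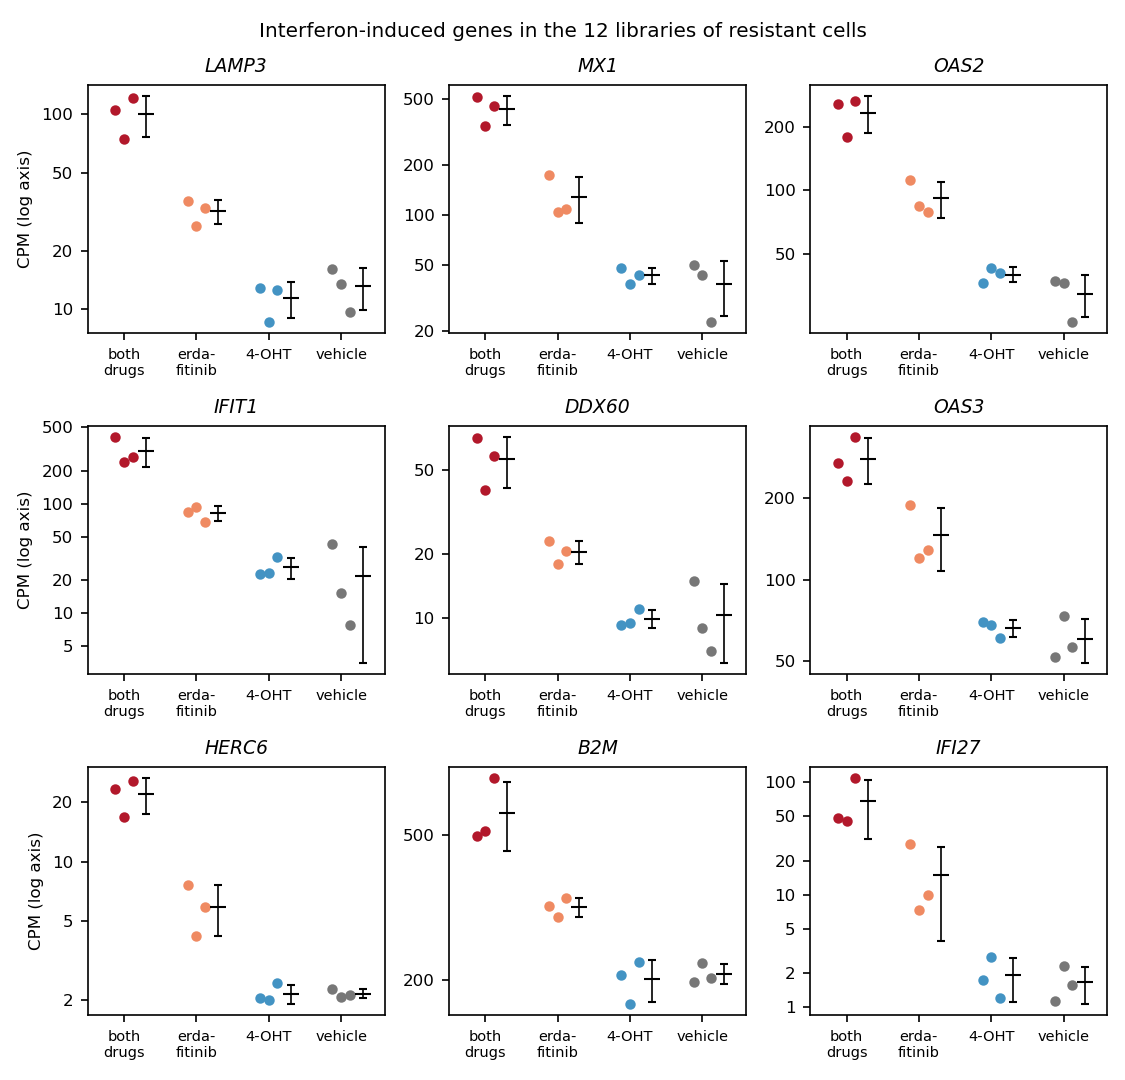
Points are the CPM values (log axis) of single libraries for 9 interferon-induced genes in the 4 groups of resistant cells, and the black marks beside them are the mean and SD of 3 libraries. In all 9 genes the combination libraries lie above the erdafitinib libraries, which lie above every 4-OHT and vehicle library.

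The RNA sensors, which detect viral RNA in the cytosol, numbered 3 and had log2 fold changes of 0.86 to 1.45. DDX60, a helicase-like protein of this system, stood at 70.2, 40 and 58.3 CPM in the combination group, against 23, 18 and 20.8 CPM in the erdafitinib group. Its groups did not overlap (log2 fold change 1.45, SE 0.28; adjusted p = 0.346), nor did those of IFIH1, the sensor MDA5, at 0.86 (SE 0.24). RIGI, the sensor of short RNA ends, was low, at 3.47, 1.64 and 3.04 CPM in the combination group and at 1.15, 1.84 and 1.34 CPM in the erdafitinib group, and its groups overlapped.

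Among the transcription factors of the pathway, STAT2 and IRF9, members of the ISRE-binding complex, had groups that did not overlap, while IRF1 and IRF7 overlapped. STAT2 stood at 143.8, 133.8 and 172.9 CPM in the combination group, against 122.6, 112.8 and 104.4 CPM in the erdafitinib group, a log2 fold change of 0.41 (SE 0.14). IRF1, a factor induced early by interferon gamma, stood at 2.21, 2.36 and 2.78 CPM in the combination group and at 2.56, 1.87 and 2.2 CPM in the erdafitinib group. Its log2 fold change of 0.15 had a 95% interval of -0.75 to 1.04.

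The ISG15 and ADP-ribosylation system had 7 members with a median log2 fold change of 1.07, of which 5 were higher without overlap (background 2.97%). DTX3L and PARP9, an E3 ubiquitin ligase and its ADP-ribosyltransferase partner, had similar log2 fold changes, of 0.96 (SE 0.18) and 1.10 (SE 0.22). DTX3L stood at 136.3, 94.8 and 131.7 CPM in the combination group, against 66.6, 56.9 and 62.6 CPM in the erdafitinib group. HERC6, a ligase of the HERC family, stood at 23.4, 16.9 and 25.7 CPM in the combination group, against 7.64, 4.22 and 5.91 CPM in the erdafitinib group, or 3.71-fold (95% interval 2.13 to 6.48). ISG15 itself, the ubiquitin-like modifier, was low. It stood at 0.67, 0.82 and 5.14 CPM in the combination group and at 1.71, 0.27 and 0.21 CPM in the erdafitinib group, so that the groups overlapped, with combination library 3 and erdafitinib library 1 the highest.

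Antigen presentation had 7 members with a median log2 fold change of 0.79, and B2M was the only one of them without overlap (background 2.97%). B2M, the light chain of MHC class I molecules, stood at 494.6, 510.8 and 714.7 CPM in the combination group, against 319.5, 297 and 335 CPM in the erdafitinib group (1.81-fold, 95% interval 1.43 to 2.29; adjusted p = 0.346). HLA-B stood at 66.1, 108.2 and 211.3 CPM in the combination group and at 115.8, 57.5 and 51.9 CPM in the erdafitinib group, and HLA-C, PSMB8, PSMB9 and TAP1 overlapped too. In HLA-B, combination library 3 and erdafitinib library 1 were the highest of their groups, and these are the 2 libraries in which GC-rich genes deviated upwards. The 18 listed genes whose groups overlapped had a median GC content of 57.1%, against 43.5% in the 32 that did not overlap, and their median average level was 2.85 log2 CPM against 3.82. The part of GC content in this division was not tested. With a correction of the counts for GC content and length, 41 of the 50 had an unadjusted p under 0.05 and 9 passed the adjusted threshold. HLA genes are variable and have close relatives, and reads that matched several genes were not counted, so their levels are uncertain.

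The remaining 8 members, interferon-induced genes of other or mixed roles, had a median log2 fold change of 1.73. Of these, 6 were higher without overlap (background 2.97%). XAF1, a partner of the apoptosis inhibitor XIAP, stood at 26, 14.8 and 31.7 CPM in the combination group, against 6.43, 3.68 and 2.68 CPM in the erdafitinib group. Its log2 fold change of 2.49 (SE 0.56; adjusted p = 0.7) was the highest on the list. IFI27, a small interferon-induced membrane protein, stood at 48.2, 44.8 and 109.6 CPM in the combination group, against 28.1, 7.39 and 9.99 CPM in the erdafitinib group. Its groups did not overlap, although erdafitinib library 1 held most of that group's level (log2 fold change 2.15, SE 0.50; adjusted p = 0.842).

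A list of 21 interferon genes, receptor subunits and their kinases was added after the values above had been seen, and 10 of its members were tested. None of the 10 had groups that did not overlap (background 2.97% higher and 2.39% lower). At these shares a set of 10 genes can easily hold none. Their median log2 fold change was 0.03. IFNAR1, a subunit of the type I interferon receptor, stood at 225.9, 232.9 and 166.8 CPM in the combination group and at 171.4, 206.8 and 227.2 CPM in the erdafitinib group. JAK1, one of the kinases linked to the type I receptor, had a log2 fold change of 0.06 (SE 0.15). The 10 interferon ligand genes on the list were not tested, with 1 count over the 3 combination libraries and 2 over the 3 erdafitinib libraries in total.

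Without erdafitinib, the same genes stood at similar levels with 4-OHT and with vehicle. Between TR 4-OHT and TR vehicle the median log2 fold change of the 50 was -0.01, against -0.05 over all genes tested, and none of the 50 had an unadjusted p under 0.05, where 127 of 16210 genes (0.783%) did. Their summed level was 1324, 1031 and 1208 CPM with 4-OHT and 1115, 1397 and 1198 CPM with vehicle, all below the erdafitinib libraries. Over all genes, 0 of 16210 (0%) were called for 4-OHT against vehicle by edgeR, and 0 by DESeq2. These libraries are separate from the 6 above, and they were uneven. Library 2 of the 4-OHT group held 8990899 counts, against 21025659 or more in the other libraries of these groups. GC-rich genes deviated from the mean of the 6 libraries above by -0.81 log2 units in vehicle library 1 and by 0.72 in vehicle libraries 2 and 3. Without 4-OHT library 1, 342 genes had an unadjusted p under 0.05 in edgeR, and without library 2, 33 did. The interaction below rests on these libraries too. MX1 stood at 48.1, 38.5 and 43.6 CPM with 4-OHT and at 49.9, 43.4 and 22.8 CPM with vehicle. LAMP3 stood at 12.9, 8.65 and 12.6 CPM with 4-OHT and at 16.2, 13.5 and 9.71 CPM with vehicle. Both genes overlapped between these groups.

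The difference between the 4-OHT effects with and without erdafitinib was tested as an interaction. In edgeR 0 of 16210 genes (0%) passed, and 134 (0.827%) had an unadjusted p under 0.05. The DESeq2 Wald test called 1 gene, LAMP3. All 50 listed interferon genes had a positive interaction, with a median of 1.05 log2 units against 0.05 over all genes, and 20 had an unadjusted p under 0.05 with a positive sign (background 0.419%). LAMP3 had an interaction of 1.84 log2 units (SE 0.34), MX1 of 1.59 (SE 0.39) and B2M of 0.90 (SE 0.22). Each had an adjusted p of 1 in edgeR's quasi-likelihood test.

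**Figure D3:**
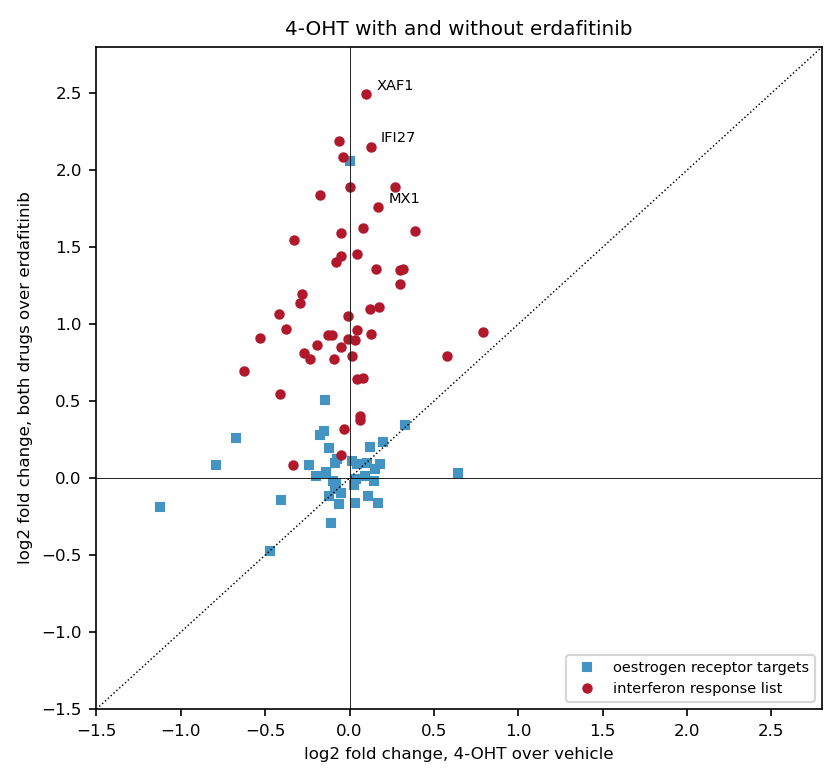
Each point is a gene, placed by its log2 fold change of TR 4-OHT over TR vehicle (horizontal) and of TR combination over TR erdafitinib (vertical); red circles are the 50 interferon response genes, blue squares the 39 oestrogen receptor targets, and the dotted line marks equal change. The red circles are spread around 0 horizontally and above 0 vertically, with XAF1 at 2.49, while the blue squares lie near 0 vertically apart from EGR3, a gene at very low counts, at 2.06.

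Genes of the oestrogen receptor pathway, the direct arm of 4-OHT action, stood close together in the groups. Of 39 target genes, none had an unadjusted p under 0.05 (background 0.642%), and their median log2 fold change was 0.03. The only members whose groups did not overlap were EGR3 and CXCL12, higher in all combination libraries, and CCND1, lower. These 2 and 1 of 39 lay near the shares over all genes tested, 2.97% higher and 2.39% lower. ESR1, the receptor gene, stood at 335.9, 270.8 and 293.5 CPM in the combination group and at 269.2, 292.8 and 309.8 CPM in the erdafitinib group (log2 fold change 0.05, 95% interval -0.28 to 0.38). PGR, the progesterone receptor gene, stood at 278.3, 186.7 and 231.2 CPM in the combination group and at 204.7, 254 and 241.3 CPM in the erdafitinib group (-0.01, 95% interval -0.51 to 0.50). GREB1, a coactivator induced by oestrogen, stood at 22.3, 18.7 and 27.3 CPM in the combination group and at 23.4, 20.4 and 19.4 CPM in the erdafitinib group (0.11, 95% interval -0.26 to 0.48). All 3 had overlapping groups. GREB1 averaged 485.9 CPM in parental cells on vehicle and 13.06 CPM in resistant cells on vehicle. Its comparison was therefore made at a level already low in the resistant line. EGR3 lay below the level of 3 counts in all 6 libraries. CXCL12, a chemokine, stood at 371, 438.4 and 444.5 CPM in the combination group, against 358.8, 340.6 and 366.5 CPM in the erdafitinib group (log2 fold change 0.23, SE 0.12).

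The FGF receptor system, target of erdafitinib, had 15 tested members with a median log2 fold change of -0.10. FGFR1 stood at 38.4, 41.7 and 60.3 CPM in the combination group and at 66.6, 50.3 and 50 CPM in the erdafitinib group. FGFR2 stood at 54.1, 54.8 and 59.6 CPM in the combination group and at 67.8, 61.8 and 56 CPM in the erdafitinib group. Both receptors overlapped between groups (log2 fold changes -0.25, SE 0.26, and -0.14, SE 0.14). Of 28 ERK feedback and immediate early genes, none had an unadjusted p under 0.05 (background 0.642%), with a median of 0.01. Without overlap, 1 of the 28 was higher and 3 were lower (background 2.97% and 2.39%). DUSP6, a phosphatase that switches ERK off, had a log2 fold change of 0.13 (SE 0.30), and SPRY4, an inhibitor of receptor signalling, of 0.03 (SE 0.33). ETV5, an ERK-dependent transcription factor, stood at 3.55, 3.82 and 4.03 CPM in the combination group, against 5.28, 5.69 and 5.15 CPM in the erdafitinib group, without overlap (-0.50, SE 0.33).

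**Figure D4:**
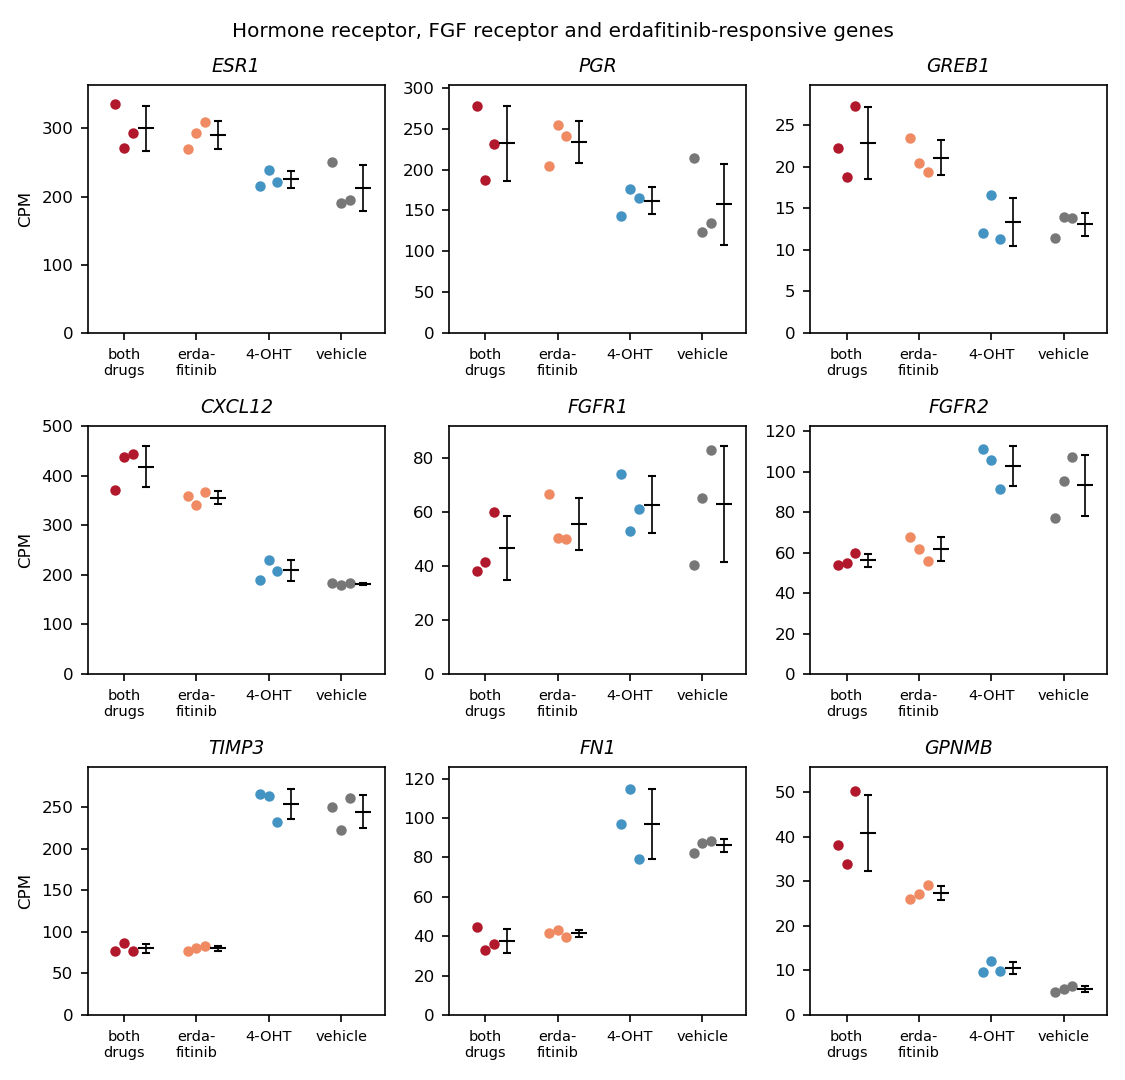
Points are the CPM values (linear axis from 0) of single libraries for 9 genes in the 4 groups of resistant cells, and the black marks are the mean and SD of 3 libraries. The combination and erdafitinib libraries overlap in ESR1, PGR, GREB1, FGFR1, FGFR2, TIMP3 and FN1 and lie apart in CXCL12 and GPNMB.

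Erdafitinib alone against vehicle called 15 genes (0.0925% of 16210), and their levels with both drugs are set beside those with erdafitinib only, since the same erdafitinib libraries enter that comparison. Of the 15, 6 were higher in all combination libraries (MX1, OAS2, OAS3, IFI27, GPNMB and CXCL12), 2 were lower, and 7 overlapped, while over all genes tested 2.97% were higher and 2.39% lower without overlap. TIMP3, an inhibitor of metalloproteinases, stood at 77.5, 86.6 and 77.3 CPM in the combination group and at 77.4, 80.3 and 83.2 CPM in the erdafitinib group, below the 222.9 to 261.9 CPM of vehicle libraries. Its log2 fold change for the addition of 4-OHT was 0.00, with a 95% interval of -0.27 to 0.28. FN1, the matrix protein fibronectin, stood at 44.5, 32.8 and 35.9 CPM in the combination group and at 41.4, 43.3 and 39.7 CPM in the erdafitinib group. GPNMB, a glycoprotein of lysosomes and melanosomes, stood at 38, 33.9 and 50.3 CPM in the combination group, against 25.9, 27.2 and 29.2 CPM in the erdafitinib group. Its groups did not overlap (log2 fold change 0.57, SE 0.17; adjusted p = 1). GPNMB also stood at 9.7, 12 and 9.76 CPM with 4-OHT, against 5.26, 5.72 and 6.57 CPM with vehicle, a log2 fold change of 0.83 (SE 0.17), and its interaction was -0.26 (SE 0.24).

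The other lists had medians of -0.30 to 0.22. The unfolded protein and ATF4 response list had 33 tested genes and a median of 0.22, with 26 positive. Of the 33, 1 was higher at an unadjusted p under 0.05 (background 0.463%), PSAT1 of serine synthesis (log2 fold change 0.37, SE 0.14). HSPA5, the main chaperone of the endoplasmic reticulum, stood at 907.4, 985.9 and 760 CPM in the combination group and at 687.1, 727.4 and 786.6 CPM in the erdafitinib group, with overlap. Of 33 lysosome genes, 2 had an unadjusted p under 0.05, both higher (background 0.463%): GPNMB and RRAGD, a GTPase of nutrient sensing at the lysosome (log2 fold change 0.47, SE 0.20). Without overlap, 4 lysosome genes were higher and 1 was lower (background 2.97% and 2.39%), and the list's median was 0.10. Cholesterol synthesis and uptake genes had a median of 0.09, with 24 of 27 positive and 0 at an unadjusted p under 0.05 (background 0.642%). ABCA1, a cholesterol exporter, was lower in all combination libraries, at 3, 1.36 and 2.31 CPM, against 3.77, 3.82 and 4.03 CPM in the erdafitinib group.

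The proliferation, basal and mesenchymal lists were slightly below 0. S phase genes had a median log2 fold change of -0.10 (37 tested), G2 and mitosis genes of -0.13 (31 of 32 negative), mesenchymal genes of -0.14 (27 tested) and basal and myoepithelial genes of -0.30 (13 of 13 negative). None of these genes had an unadjusted p under 0.05 (background 0.642%). Without overlap, 2 basal and myoepithelial, 2 mesenchymal and 1 G2 and mitosis genes were lower (background 2.39%). In the S phase list 1 gene was higher without overlap (background 2.97%). MKI67, a marker of cycling cells, stood at 255, 159.3 and 152.8 CPM in the combination group and at 166.7, 207.3 and 208.8 CPM in the erdafitinib group. ACTA2, smooth muscle actin, stood at 385.2, 492.2 and 413 CPM in the combination group and at 664, 593.6 and 416.8 CPM in the erdafitinib group, an overlap set by erdafitinib library 3. THBS1, the matrix glycoprotein thrombospondin, stood at 630, 561.5 and 476.7 CPM in the combination group, against 670.3, 668.3 and 642.7 CPM in the erdafitinib group, without overlap (-0.25, SE 0.13). Epithelial junction genes had a median of -0.06, p53 targets of -0.02, YAP targets of -0.12, luminal identity genes of -0.02 and drug metabolism genes of 0.02. In these lists 0 genes had an unadjusted p under 0.05 (background 0.642%).

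**Figure D5:**
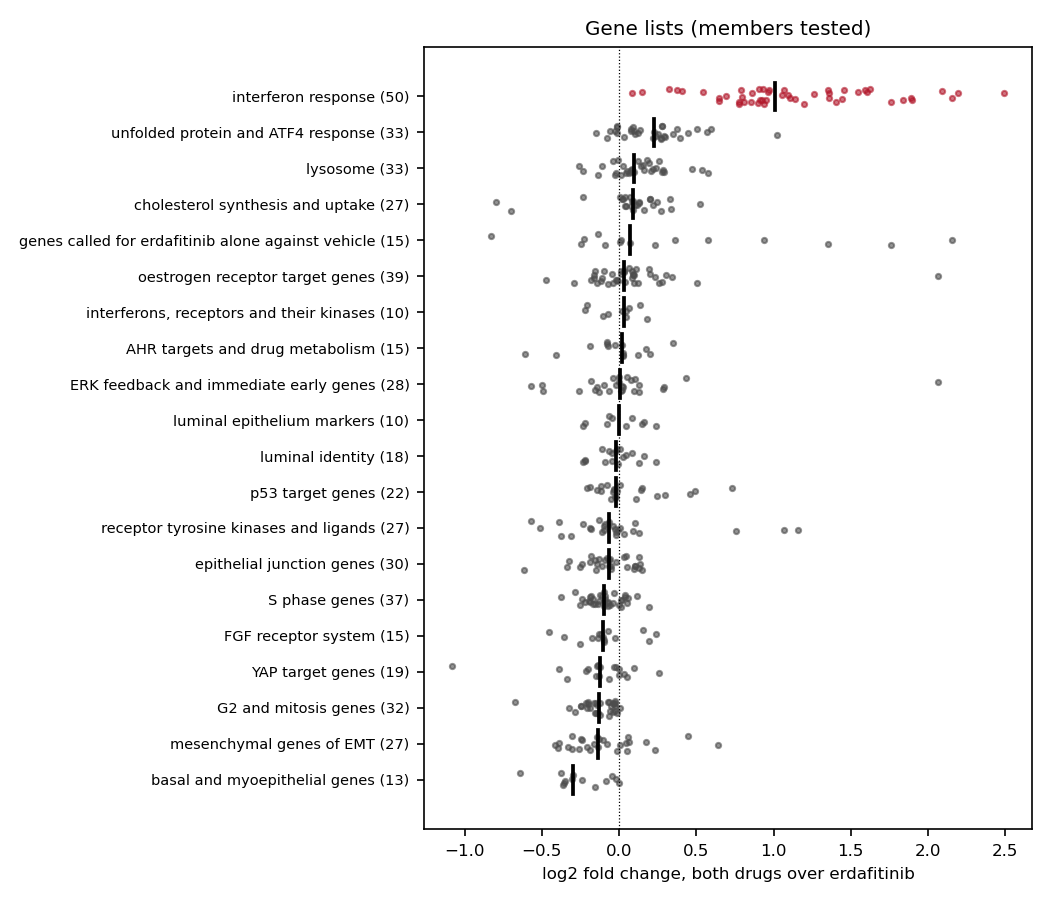
Each dot is a tested member of a gene list, placed by its log2 fold change of TR combination over TR erdafitinib; the black bar is the list's median and the number in brackets its tested members. The interferon response list stands at a median of 1.01, and the next highest, the unfolded protein and ATF4 response, at 0.22.

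Several genes with small p-values outside the interferon list are also known to respond to interferon, and others are not. PLSCR1, an interferon-induced scramblase, stood at 45.2, 42.3 and 65.4 CPM in the combination group, against 32.2, 22.9 and 24.3 CPM in the erdafitinib group (log2 fold change 0.95, SE 0.23; adjusted p = 0.893). SAMHD1, which depletes the nucleotides that viruses need, stood at 99.4, 99.4 and 86.9 CPM in the combination group, against 67.1, 61.9 and 63.8 CPM in the erdafitinib group (0.57, SE 0.15). CLGN, a chaperone of the endoplasmic reticulum, stood at 15.4, 15.4 and 17.3 CPM in the combination group, against 7.05, 6.51 and 8.48 CPM in the erdafitinib group (1.13, SE 0.27). DDR2, a receptor kinase for collagen, stood at 6.54, 5.68 and 8.78 CPM in the combination group, against 3.31, 2.83 and 3.28 CPM in the erdafitinib group (1.16, SE 0.33). BTC, a ligand of the EGF receptor family, stood at 2.68, 2.68 and 2.7 CPM in the combination group, against 1.64, 0.95 and 1.24 CPM in the erdafitinib group (1.07, SE 0.41). In all 5 the groups did not overlap (background 2.97%), but they were named for small p-values in this comparison, which favours separation.

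By the naming rule, the lower genes with the smallest p were ZNF778, UNC119B, LPCAT3, METTL7A, SPAG5 and RNFT2, with log2 fold changes of -0.53, -0.33, -0.51, -0.34, -0.35 and -0.52. ZNF778, a zinc finger protein, stood at 47.8, 40.9 and 35.6 CPM in the combination group, against 52.5, 65 and 62 CPM in the erdafitinib group. LPCAT3, an acyltransferase that places polyunsaturated fatty acids in phospholipids, stood at 17.1, 21 and 15.5 CPM in the combination group, against 25.5, 26.4 and 24.2 CPM in the erdafitinib group. SPAG5, the spindle protein astrin, stood at 66.5, 72.2 and 60.7 CPM in the combination group, against 89, 86.5 and 78 CPM in the erdafitinib group. None of the 6 overlapped between groups (background 2.39%), and each had an adjusted p of 1 in edgeR. They were chosen by small p in this comparison, so their separation largely follows from that choice. The lower gene with the smallest p of all was the antisense RNA ZNF710-AS1, at 6.7, 7.13 and 5.05 CPM in the combination group, against 12.3, 11.7 and 10.9 CPM in the erdafitinib group (-0.88, SE 0.21).

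Over the 10915 genes whose average level was 2 log2 CPM or more, the 95% interval of the difference lay within 1 log2 unit on either side of 0 for 83.2%, and its median half-width was 0.51. The log2 fold change itself was within 0.5 for 99.1%. It was at least 1 for 23 of these genes, of which 17 were on the interferon list, and -1 or less for 1, BCYRN1, a small RNA at 8.44, 42.2 and 11.1 CPM in the combination group and 47.2, 79.9 and 35.6 CPM in the erdafitinib group, with overlap.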

How the data were processed

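Each deposited file lists raw counts for Ensembl genes. Per the file headers, the authors counted read pairs by strand (reverse setting) with featureCounts 2.0.1 and Ensembl 104. HISAT2 2.1.0, GRCh38 and featureCounts 1.4.6-p1 are the tools and build in the submitters' processing notes. Trimming was not given in the sources used here.

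The counts of all 15 libraries, 3 in each of 5 groups, were fitted together by edgeR 4.0.16 (R 4.3.3) with its quasi-likelihood method and 1 mean for each group, leaving 10 residual degrees of freedom (common dispersion 0.09505). The filter filterByExpr left 16210 genes and removed 44454, and TMM gave the scaling. A call needed a Benjamini-Hochberg adjusted p under 0.05. Groups were said not to overlap where all 3 libraries of one lay beyond all 3 of the other. The standard error was the log2 fold change divided by the root of F, and intervals used the t distribution. CPM values use TMM-scaled totals. Floors cover counting error only. Scripts were tested on simulated data.

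The comparison, gene lists and named genes were chosen with earlier results of these data known. Named genes were all called genes (none), the 6 higher and 6 lower protein-coding genes with the smallest p among those averaging 2 or more log2 CPM, 51 fixed genes (50 tested) and the member of each list with the smallest p. Other genes, such as XAF1, IFNAR1, PLSCR1, SAMHD1, CLGN, BTC, ZNF710-AS1 and BCYRN1, and further members of the interferon list, were named after their values were seen. Some genes are not reported here. Gene type and GC content came from GENCODE 29, promoters from RefSeq. Within the 2 groups compared, replicate counts differed by more than counting error (chi-square per gene 8.05 to 101), so no library was a copy. Alternatives were other normalizations and filters, the DESeq2 1.42.0 Wald test, smaller sets of libraries, a replicate block, corrections for GC content and length and for the main axis of within-group variation, thinned counts and leaving out each library.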

Additional observations from a re-analysis of the deposited data

How the results depend on the processing

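Direction held for the interferon list in every setting run, with a median log2 fold change of 0.88 to 1.22 and 45 to 50 members positive. The count of genes called in the combination against erdafitinib was 16 with the DESeq2 Wald test, 9 with no filter on low counts, 17 with the main axis of within-group variation (49.5% of it) as a covariate and 10 with the GC content and length correction, against 0 in the result reported. The cause was not tested. These 4 settings called 18 genes between them, 15 of them on the interferon list, and 6 genes in all 4 settings: DDX60, HERC6, LAMP3, MX1, OAS2 and PARP9. The other 13 settings called 0, among them every setting that left out 1 library (0 to 0). The interaction was 1 called gene with DESeq2. LAMP3 had an adjusted p of 1.88e-06 to 1 over the 17 settings, and MX1 of 1.31e-05 to 1. Same-numbered deviations of the 2 groups correlated at -0.73, 0.11 and -0.66, and no library correlated best with its own number. These deviations largely followed the main axis, which was tied to GC content (Spearman correlation of its loadings -0.722). The correlations therefore cannot show whether libraries of the same number were paired. With the replicate block, 0 genes were called and the smallest adjusted p was 0.0739. Leaving out each library in turn gave medians of 0.88 to 1.22 for the interferon list and -0.06 to 0.10 for oestrogen receptor targets. The alternatives without the 2 shallowest libraries, and with only the 12 libraries of resistant cells, were chosen after seeing the data and called 0. Among named genes and the other lists, 1502 values stayed the same, 75 moved by more than the replicate spread and 27 gained a call. With 3 libraries a group and a biological coefficient of variation of 30.8%, low genes such as ISG15 and RIGI were measured with wide error.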

Other observations

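The gene ENSG00000280441 stood at 0.355, 0.409 and 0.3 CPM in the combination group, against 7.94, 2.11 and 4.89 CPM in the erdafitinib group, with an adjusted p of 1 in edgeR's quasi-likelihood test (-3.79 on the log2 scale, SE 1.28). It also varied widely within other groups, at 6.4, 0.585 and 3.49 CPM with 4-OHT, 0.206, 2.88 and 6.64 CPM with vehicle and 0.168, 0.159 and 5.93 CPM in parental cells. Of the 17 settings run, 1 called it, the correction for the main axis of within-group variation. The interferon-induced long non-coding RNA BISPR stood at 20.5, 25.5 and 23.5 CPM in the combination group, against 17.3, 15.6 and 14 CPM in the erdafitinib group (log2 fold change 0.57, SE 0.17). EIF2AK2, the double-stranded RNA-activated kinase PKR, stood at 514, 305.4 and 355.1 CPM in the combination group, against 215.7, 233.9 and 274.4 CPM in the erdafitinib group (0.70, SE 0.26). The nuclear body proteins SP100 and SP110 had log2 fold changes of 0.77 and 0.59, both without overlap (background 2.97%).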
